A study of Drosophila melanogaster with 3 samples.

Results

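The genes described here encode the core of NF-kappaB immune signalling in Drosophila melanogaster: the NF-kappaB factors Rel, Dif and dl, the inhibitor cact, the Toll adaptors and kinase Myd88, tub and pll, the Imd adaptor imd, and the IkappaB kinase subunits key and IKKbeta. They were chosen by name, with earlier results of these data known, and they are 10 of the 13945 protein-coding genes on the 6 chromosome arms with peaks. For each gene, every peak summit inside the gene body or within 5 kb either side was collected, a region called the gene window below. The peaks came from chromatin immunoprecipitation followed by sequencing (ChIP-seq) of the transcription factor Deaf1. The chromatin came from whole embryos of both sexes, aged 0 to 24 hours, of a transgenic line that stably carries Deaf1 with GFP at its C terminus, and it was recovered with an antibody against GFP. There was 1 group with 3 replicates, which the labels number as biological, and no second genotype, age or infection state. In whole embryos, a site bound in fewer cells and a site bound less in each cell cannot be told apart, and neither the cell type nor the age at which a site was bound was recorded.

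In flies, the Toll and Imd pathways end in NF-kappaB proteins, which enter the nucleus after a signal and switch on target genes, among them antimicrobial peptide genes. Toll signals through Myd88, tub and the kinase pll to release dl or Dif from cact. Imd signals through the adaptor imd and the IkappaB kinase complex to activate Rel. The maternal Toll pathway also sets up the dorsoventral axis of the early embryo through dl. Deaf1 is a SAND-domain protein that binds sequences containing TTCG, and fly studies have linked it to the expression of antimicrobial peptide genes. The comparison made here is between Rel and Dif on the one side and dl on the other, and it was proposed with results of these data known, so it is a description with no test.

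The peaks were in 5 lists on the dm6 genome build: the lists of replicates 1, 2 and 3, the list from the pooled replicates, and the optimal set kept by the irreproducible discovery rate (IDR), which measures how well replicates rank the same peaks. The IDR set holds 8667 peaks, while the pooled list and each replicate list hold 30000 peaks, a fixed length, so their weakest peaks are relaxed calls. The peak signal is the authors' own value from their peak caller, and its median was 54.4, 52.7 and 41.1 in replicates 1, 2 and 3. Signals are therefore given as relative signal, the peak's signal divided by the median of its own list. The weakest listed peaks had a relative signal of 0.348 (replicate 1), 0.333 (replicate 2) and 0.35 (replicate 3), and the strongest had 326.7, 439.0 and 313.8. No peak had the same ends and signal in any pair of replicates. Read depth is unknown, so the SD over the 3 replicates is the error given.

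Sequences at the strongest summits of the NF-kappaB factor genes are shown because the comparison of Rel and Dif with dl turns on these sites. They are from the RefSeq copy of the genome (dm6), read 5′ to 3′ on the minus strand, the coding strand of all 3 genes, and capitals mark TTCG or its complement CGAA. The Rel summit lies in a 5′ UTR, so it is shown as a pair of 30-base sites around the summit, at chr3R:9047694-9047723 and chr3R:9047765-9047794. The Dif site, chr2L:17428200-17428250, is the part of the summit window outside UTRs, and the dl site is chr2L:17450946-17451046.
Rel site 1: atTTCGctctgtaaacaacaaccgCGAAtc
Rel site 2: gaTTCGctgcgtcgtttttccataaatttg
Dif: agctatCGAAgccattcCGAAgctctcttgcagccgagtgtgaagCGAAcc
dl: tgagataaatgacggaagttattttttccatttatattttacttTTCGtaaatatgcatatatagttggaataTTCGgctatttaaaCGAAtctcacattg
Each of the 3 genes had 3 copies of TTCG on either strand within 50 bp of its strongest IDR summit, although their relative signals were far apart. GC content over these windows was 37.6% at Rel, 56.4% at Dif and 26.7% at dl.

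All of the genes but key had reproducible Deaf1 peaks nearby, and in 6 of them a peak lay within 500 bp of an own start, though not always closest to it. An IDR summit lay in the gene window of 9 of the 10 genes, all but key, where 56.5% of all protein-coding genes had one. An IDR summit lay within 500 bp of an annotated transcription start of the gene itself at 6 of the 10 genes (Rel, Dif, cact, pll, Myd88 and imd), where the share over all protein-coding genes was 27.8%. At dl, tub, key and IKKbeta there was none. The imd summit lay closer to a start of Dp1, and that of pll lay closer to a start of TfIIA-L in replicates 2 and 3. Within 1000 bp of an own start the count was 7 of 10, now with dl, and the share over all genes was 31.2%. Within 250 bp it was 5 of 10, without dl and imd, and the share over all genes was 24.7%. A summit among the 8667 strongest peaks of every one of the 3 replicate lists lay in the window of 9 of the 10 genes, again all but key, where 52.1% of all genes had one. No test was made of these counts, since the genes were chosen with earlier results of these data known. They were also picked for a common function and differ in length and number of starts. Among genes under 6 kb, 6 of 7 members had a window summit, where 50% of all 10985 such genes did, and 4 of 7 had an own-start summit, where 18.6% did. Among genes of 6 to 30 kb (Dif, dl and cact), 3 of 3 had a window summit, where 78% of all 2297 such genes did, and 2 of 3 had an own-start summit, where 56.8% did. By number of annotated starts, an own-start summit was found at 1 of 4 members with 1 start, where 19.7% of such genes had one. It was found at 3 of 3 members with 2 starts, where 42% had one, and at 2 of 3 with 3 to 4 starts, where 66.1% had one. With 1 start or with 3 to 4, the members were thus near the share of their class.

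The gene windows held 20 distinct IDR summits, and each lay inside a listed peak in all 3 replicates. Such a peak did not always have a separate summit for it: replicate 1 at Dif and replicate 3 near tub listed a single summit for 2 IDR summits. Of the 20 IDR summits, 8 lay within 500 bp of an own start, 6 of them on its upstream side, and 8 lay inside a member's body. None lay in a coding exon. The nearest protein-coding start belonged to the member for 11 of the 20 and to another gene for 9, so a window summit is not by itself a peak of the named gene. Shares of all IDR summits at such positions are not given here, so these counts are not read as traits of the group.

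**Figure D1:**
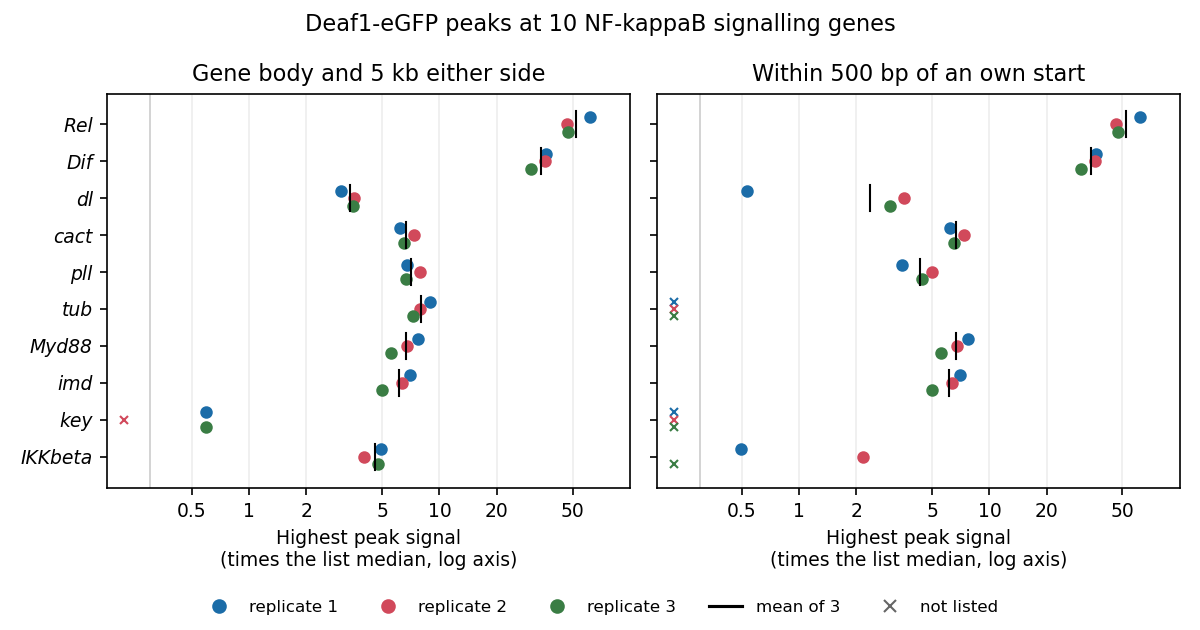
Highest relative signal (peak signal over the median of its own replicate list, log axis) for each gene and replicate, in the gene window on the left and within 500 bp of an own start on the right. Dots are replicates, bars are means of 3, and crosses mark genes not listed in that replicate; Rel and Dif lie at 30.4 or above in every replicate, while dl lies at 3.57 or below.

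Rel carried the strongest peak of the group. Rel (FBgn0014018, chr3R:9044183-9047977, minus strand) encodes Relish, the NF-kappaB factor of the Imd pathway, which has its own inhibitory ankyrin repeats. Its IDR summit at 9047744 lies 85 bp inside the nearest of its 4 annotated starts, in a 5′ UTR of Rel and an intron of Nmdmc, a folate metabolism gene. Relative signal there was 61.8, 46.5 and 47.5 in replicates 1, 2 and 3 (51.9 ± 8.55, SD, n = 3), and the summit ranked 219 of 8667 in the IDR set. The replicate summits lay within 12 bp of the IDR summit. The peak, chr3R:9047091-9048689, is 1599 bp wide, wider than 97.8% of the 7673 IDR intervals, whose median width was 466 bp. The interval covers all 4 starts of Rel, of which 3 lie within 500 bp of the summit, and the start farthest inside the gene, at 9047200, had no summit within 500 bp in any of the 5 lists. The other IDR summits of the window lay at neighbours: relative signal was 3.37 ± 0.154 at 9052538, 43 bp from a start of the histone demethylase gene Kdm2, and 2.33 ± 0.702 at 9039696, 70 bp from a start of hyx (both SD, n = 3).

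Dif carried the next strongest peak, at an internal start and not at its distal one. Dif (FBgn0011274, chr2L:17413248-17433161, minus strand) encodes the Dorsal-related immunity factor, which acts downstream of Toll in the immune response. The IDR summit at 17428200 lies 1 bp upstream of the internal start at 17428199. Relative signal there was 36.2, 35.7 and 30.4 in replicates 1, 2 and 3 (34.1 ± 3.2, SD, n = 3), with rank 409 of 8667. All 3 replicates placed the summit within 4 bp of the IDR summit. The distal start, 4962 bp upstream, had no summit within 500 bp in any of the 5 lists.

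A second interval, in the intron between these starts, held 2 more IDR summits of Dif. They lie 2093 bp and 2292 bp upstream of the internal start. Relative signal at 17430292 was 20 and 14.2 in replicates 2 and 3. At 17430491 it was 15.7, 16.6 and 11.2 in replicates 1, 2 and 3 (14.5 ± 2.91, SD, n = 3). Replicate 1 listed a single summit between the 2 positions, 169 bp from 17430292 and 30 bp from 17430491, so its value is given only for 17430491. The sequences of both, at chr2L:17430242-17430342 and chr2L:17430441-17430541, are shown because the neighbours differ in their copies of TTCG.
Dif intron 17430292: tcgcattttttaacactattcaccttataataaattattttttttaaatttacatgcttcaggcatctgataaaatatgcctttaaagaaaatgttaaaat
Dif intron 17430491: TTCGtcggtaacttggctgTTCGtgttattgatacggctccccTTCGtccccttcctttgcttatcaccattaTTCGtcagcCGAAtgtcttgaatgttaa
The first held no TTCG, and 21.8% GC. The other held 5 copies of TTCG on either strand, and 45.5% GC.

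The dl gene, next to Dif on the same strand, had a single IDR summit, at 0.919 times the median of the IDR set. dl (FBgn0260632, chr2L:17436830-17450364) encodes Dorsal, the maternal factor of dorsoventral patterning. Its IDR summit at 17450996 lies 632 bp upstream of the most upstream dl start, in a non-coding exon of lncRNA:CR46204, in a peak of 305 bp that is wider than 26.4% of IDR intervals. Relative signal there was 3.04, 3.46 and 3.52 in replicates 1, 2 and 3 (3.34 ± 0.262, SD, n = 3), with rank 4705 of 8667. None of the 3 annotated dl starts had an IDR summit within 500 bp. At the most upstream start, 17450364, relative signal was 0.531, 1.04 and 0.859 in replicates 1, 2 and 3, with ranks 23688, 14605 and 16956 of 30000.

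The replicates differed at the internal dl start at 17448510. Replicate 2 listed a summit 129 bp upstream of it, with a relative signal of 3.57, and replicate 3 listed one 141 bp upstream, with 3.01. Replicate 1, the pooled list and the IDR set listed no summit within 500 bp of this start. The site, in an intron of dl at chr2L:17448589-17448689, is shown because its signal in replicates 2 and 3 was of the size of the dl IDR summit.
dl internal start: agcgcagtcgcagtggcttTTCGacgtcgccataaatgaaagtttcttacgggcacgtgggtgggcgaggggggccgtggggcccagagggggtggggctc
Its GC content was 65.3%, with 1 TTCG, against 26.7% and 3 at the dl IDR summit. Whether GC content bears on the missing peak of replicate 1 was not tested.

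**Figure D2:**
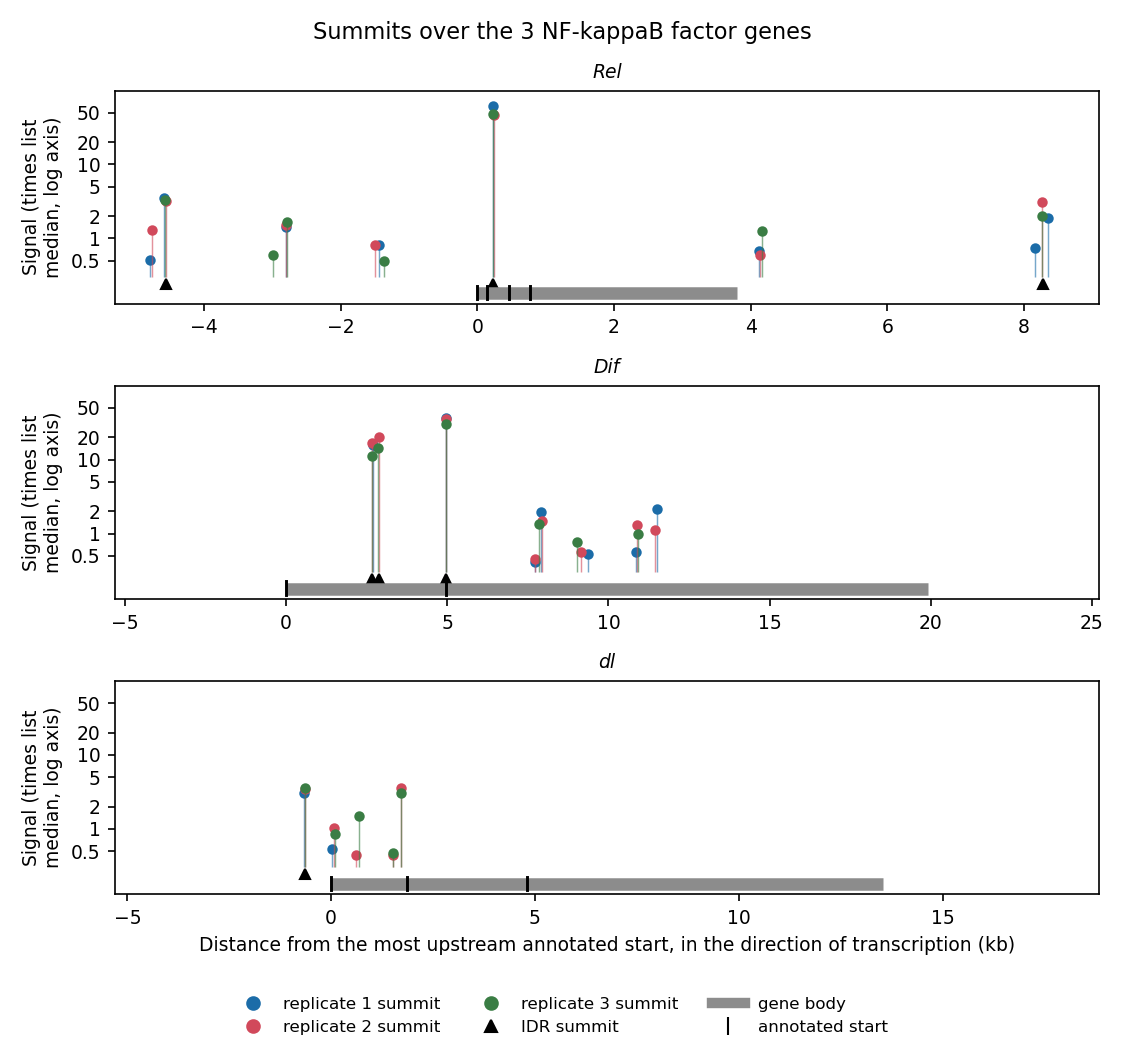
Replicate summits (dots on stems) over Rel, Dif and dl, with relative signal on a log axis and distance in kb from the most upstream start in the direction of transcription; grey bars are gene bodies, ticks are annotated starts and triangles are IDR summits. The strong summits sit at the starts of Rel and at the internal start of Dif and in the intron upstream of it, and every dl summit is at 3.57 or below.

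The highest relative signal in the Rel window was 20.4, 13 and 13.5 times that in the dl window in replicates 1, 2 and 3 (15.6 ± 4.09, SD, n = 3). The highest in the Dif window was 11.9, 10 and 8.65 times that of dl (10.2 ± 1.64). Rel was above Dif in each replicate too, by 1.71, 1.3 and 1.56 times (1.52 ± 0.205). This order depends on the measure: the sum of all summits in the window was 71.3, 57.1 and 56.8 for Rel, against 57.4, 77.2 and 58.9 for Dif, so Dif was above Rel in replicates 2 and 3. The lowest Rel and Dif values were 46.5 and 30.4, and the highest dl value was 3.57. How often other genes part in this way was not computed, and the comparison was proposed with these results known. The window level of dl, 3.37 ± 0.293, comes from the internal-start summit in replicate 2 and from the upstream summit in replicates 1 and 3. Against the upstream dl IDR summit alone the ratios were 15.8 ± 3.96 for Rel and 10.3 ± 1.63 for Dif.

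Dif and dl are tandem neighbours, with 3668 bp between their bodies. Their strongest IDR summits lie 22796 bp apart. The 14583 bp between the end of the last IDR interval of Dif and the nearest start of dl held no summit in any of the 5 lists, and this stretch includes the distal start of Dif and most of the dl body.

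The inhibitor gene cact carried a middling peak at its starts. cact (FBgn0000250, chr2L:16313036-16326207, minus strand) encodes Cactus, the IkappaB protein that holds dl and Dif in the cytoplasm. Its strongest IDR summit, at 16325821, lies in an intron 196 bp upstream of the nearest of its 4 starts. Relative signal there was 6.23, 7.36 and 6.51 in replicates 1, 2 and 3 (6.7 ± 0.587, SD, n = 3), with rank 2337 of 8667. A weaker IDR summit lay in a 5′ UTR, 336 bp inside another start, with 2.38 ± 0.284. The weakest lay in an intron 5472 bp inside, with 1.72 ± 0.209 and rank 8382, near the end of the IDR set. The site at chr2L:16325771-16325871 is shown because its only TTCG is part of the longer TTCGG and lies 7 bp from the summit.
cact: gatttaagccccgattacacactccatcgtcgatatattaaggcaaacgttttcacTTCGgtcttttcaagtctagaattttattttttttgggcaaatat

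Among the Toll adaptor and kinase genes, Myd88 and pll had a peak at their own start and tub had none. Myd88 (FBgn0033402, chr2R:9302823-9308722, minus strand) encodes the adaptor that binds the receptor. Relative signal at its IDR summit at 9308525, in a 5′ UTR 137 bp upstream of the nearest start, was 7.72, 6.74 and 5.56 in replicates 1, 2 and 3 (6.67 ± 1.08, SD, n = 3). A second summit in the same interval, 20 bp upstream of the other start, had 4.02 ± 1.02. These 2 summits are the only ones of Myd88 in the IDR set.

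The kinase gene pll (FBgn0010441, chr3R:27251131-27253182, minus strand), which encodes Pelle of the IRAK family, had its own-start summit at 27253303, 121 bp upstream and in an intron of TfIIA-L. The peak lies between nearby starts of both genes: in replicate 2 its summit was 116 bp from a TfIIA-L start and 132 bp from that of pll, and in replicate 3 it was 114 bp and 134 bp. Relative signal there was 3.49, 5.02 and 4.42 in replicates 1, 2 and 3 (4.31 ± 0.772, SD, n = 3). The strongest summit of its window was higher, at 6.72, 7.93 and 6.71 (7.12 ± 0.7), but it lies 4710 bp past the 3′ end of pll, in a 3′ UTR of CG5984. The remaining IDR summit, 29 bp from a start of CG5984, had 2.89 in replicate 2 and 2.67 in replicate 3, while replicate 1 listed a summit on either side of it, with 2.7 and 1.03. No TTCG lay within 50 bp of the own-start summit or of the strongest one, which had 21.8% and 19.8% GC.

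The adaptor gene tub (FBgn0003882, chr3R:4387742-4389813, plus strand) encodes Tube, which joins Myd88 to pll. No list had a summit within 500 bp of its start. Its window reached 8.97, 7.89 and 7.27 in replicates 1, 2 and 3 (8.04 ± 0.862, SD, n = 3), at 4394216, which is 4403 bp past its 3′ end and 43 bp from a start of CG34112. A second summit in the same interval had 2.14 in replicate 1 and 1.61 in replicate 2, and replicate 3 listed only the stronger one. With 5 kb either side the stronger summit is counted for tub, and by the nearest start it is not.

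In the Imd branch, imd had a peak that it shares with a neighbour, and the kinase subunit genes had no IDR summit at their starts. The adaptor gene imd (FBgn0013983, chr2R:18409796-18413599, minus strand) encodes a death-domain protein below the peptidoglycan receptors. Its strongest IDR summit, at 18413929, had 6.99, 6.37 and 4.97 in replicates 1, 2 and 3 (6.11 ± 1.03, SD, n = 3). It lies 330 bp upstream of an imd start but 122 bp from a start of Dp1, inside an intron of Dp1. A second summit, with 3.49 ± 0.7, lies 79 bp from a Dp1 start and 531 bp upstream of imd, just outside the 500 bp limit.

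IKKbeta (FBgn0024222, chr3R:16046347-16049421, minus strand) encodes the catalytic subunit of the IkappaB kinase, which phosphorylates Rel. Its only IDR summit lies 3636 bp past its 3′ end, at 16042711, between genes and 787 bp from a start of Jhbp4. Relative signal there was 4.91, 3.99 and 4.78 in replicates 1, 2 and 3 (4.56 ± 0.498, SD, n = 3). Within 500 bp of its own start, replicate 1 listed 0.494 at a summit 480 bp inside the gene. Replicate 2 listed 2.17 at another site, 132 bp upstream and 117 bp from a start of CG5013. Replicate 3, the pooled list and the IDR set listed nothing there. No site near the IKKbeta start was therefore listed in more than 1 replicate.

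The regulatory subunit gene key (FBgn0041205, chr2R:24785514-24787411, minus strand), which encodes Kenny, had the lowest values of the 10 genes. Replicate 1 listed up to 0.591 and replicate 3 up to 0.592 in its window, and replicate 2 listed no summit. These summits and the single pooled summit, at 0.39, lay in an intron of the neighbour Reg-5, upstream of key. The nearest IDR summit, 5960 bp from the body of key and so outside the window, lay 39 bp from a start of Reg-5. Other summits just outside a window were 5269 bp from Rel and 5528 bp from tub, and the farthest inside was that 4710 bp from pll.

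**Figure D3:**
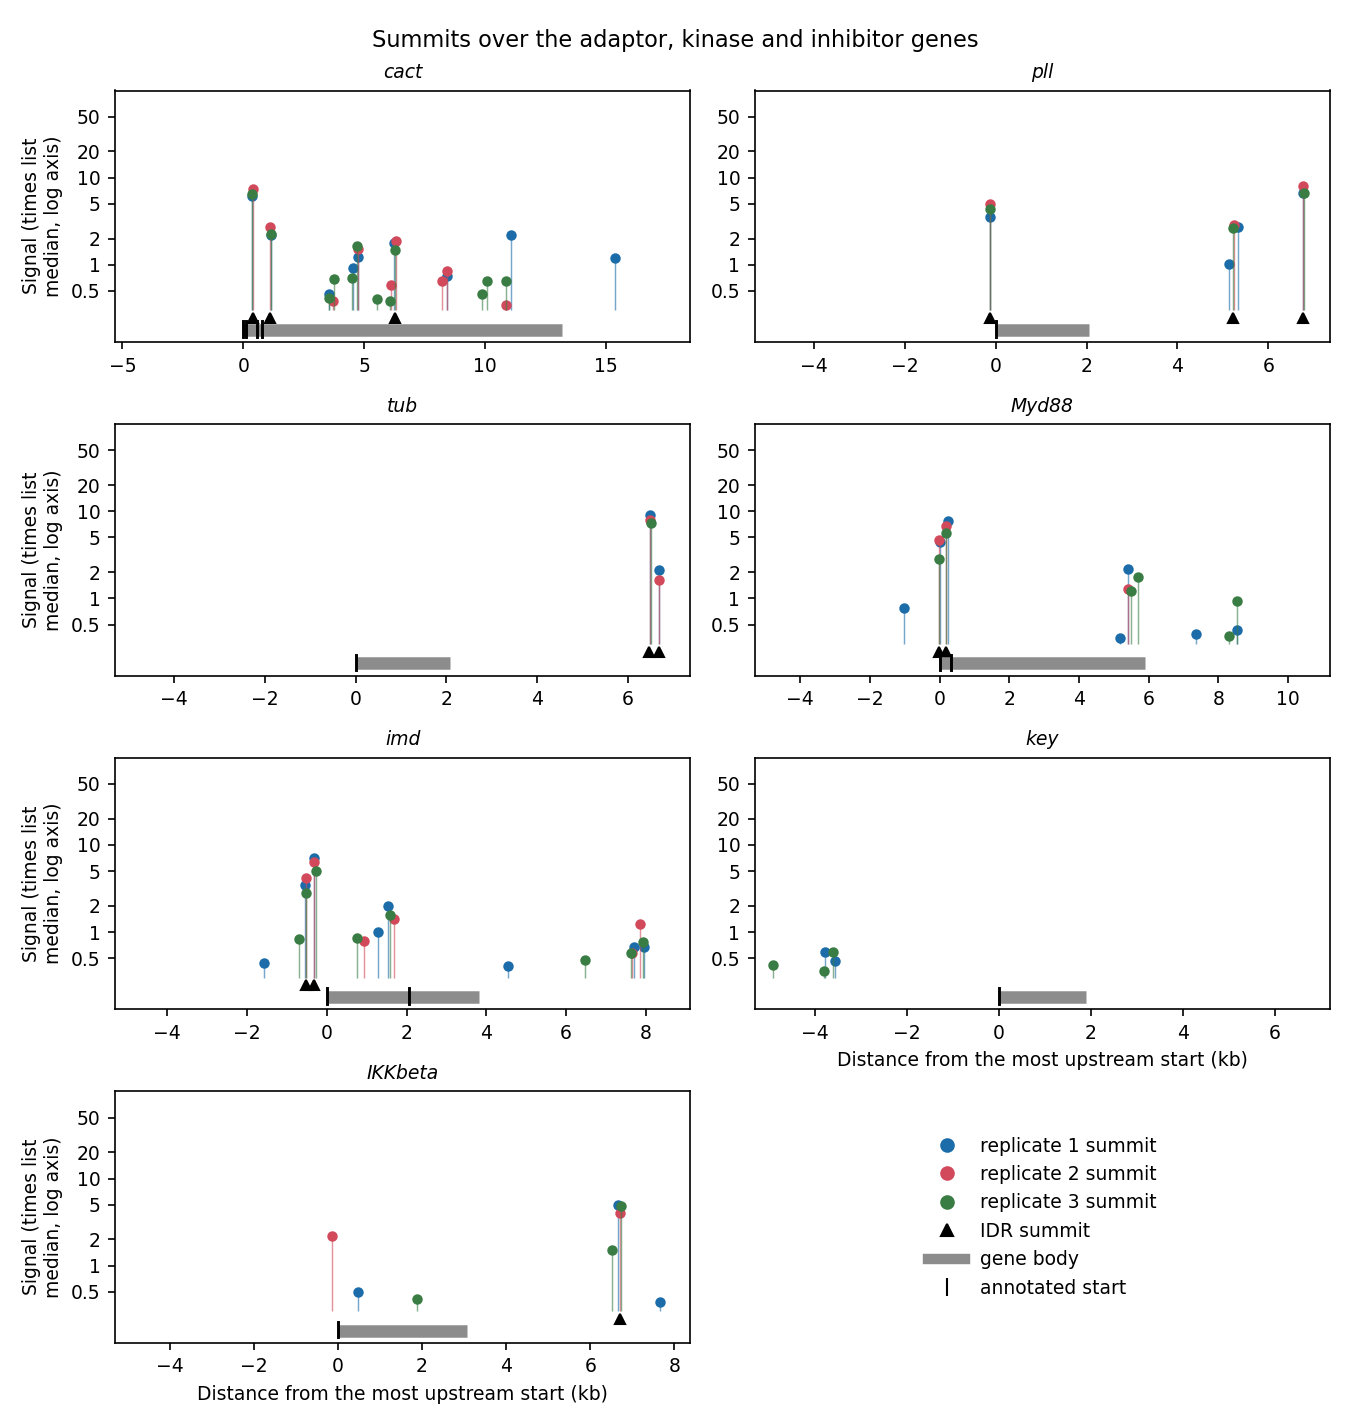
Replicate summits (dots on stems) over the inhibitor, adaptor and kinase genes, with relative signal on a log axis and distance in kb from the most upstream start in the direction of transcription; grey bars are gene bodies, ticks are annotated starts and triangles are IDR summits. The strongest summits of cact, Myd88 and imd lie at or just upstream of a start, though that of imd lies closer to a start of Dp1. Those of pll, tub and IKKbeta lie past the gene's end, and key had no IDR summit.

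Set beside all 13945 protein-coding genes, Rel and Dif lay near the top, 5 genes lay around the upper quartile, and dl, IKKbeta and key lay lower. The highest window signal, averaged over replicates as a percentile, was above that of 97.4% of genes for Rel and 95.1% for Dif, against 54.6% for dl. For cact, pll, tub, Myd88 and imd the share lay between 70.5% and 76.7%. Among these, the summits behind the levels of pll and tub lie past the gene's 3′ end, and that of imd lies closer to a start of Dp1. IKKbeta was above 63% of genes, and key above 28.8%. The median window signal of the 10 genes was 6.69, and that of all protein-coding genes was 2.78. At own starts the median was 5.21 for the 10 genes, while the median of all genes was 0, since 47.1% of genes had an own-start summit listed in at least 1 replicate and the rest had none. For dl the own-start values of 0.531, 3.57 and 3.01 in replicates 1, 2 and 3 gave 2.37 ± 1.62 (SD, n = 3). The replicate 1 value is from the start at 17450364 and the others are from the internal start at 17448510. This SD therefore mixes different sites and is not the spread at a single dl start.

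**Figure D4:**
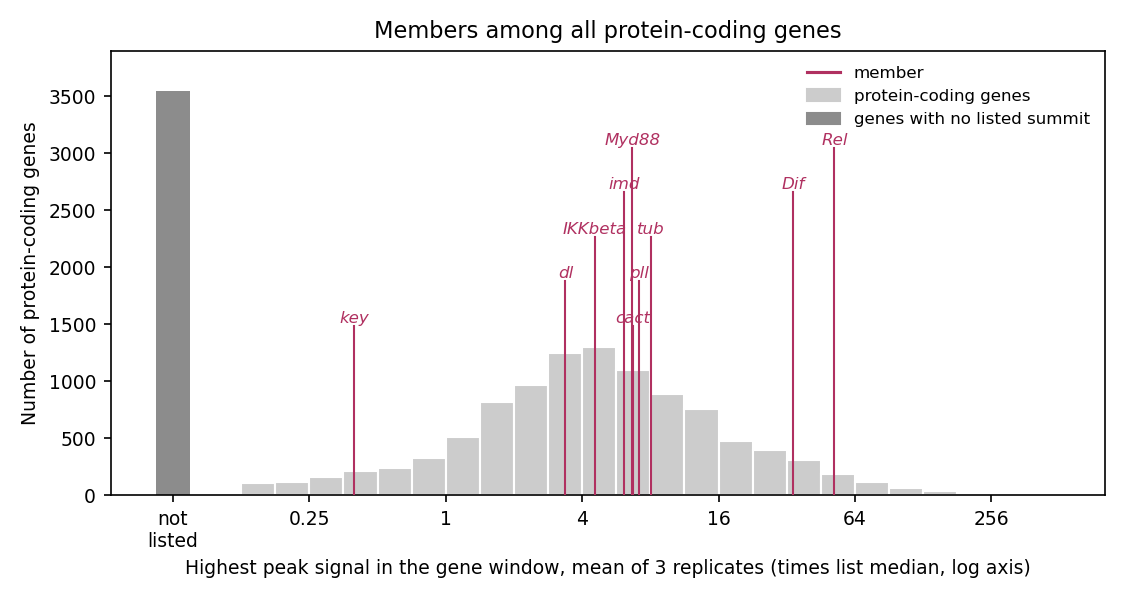
Number of protein-coding genes (vertical axis) by highest relative signal in the gene window, as the mean of 3 replicates with 0 where a replicate listed none (log axis, with genes listed in no replicate in the separate bar at the left). Vertical lines mark the 10 genes; Rel and Dif stand to the right, above 97.4% and 95.1% of genes, dl lies among the middle bars and key at the low end.

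TTCG was found around the 20 summits at nearly the same share as around IDR summits in general. A word counts as present when it starts and ends within 50 bp of the summit on either strand, and since TTCGG contains TTCG, their counts are not separate. TTCG lay at 13 of the 20 summits (65%) and at 66.3% of all 8667 IDR summits. TTCGG lay at 7 of 20 (35%) and at 28.9% of all. GAGAG, a word bound by the GAGA factor, lay at 7 of 20 (35%) and at 22.1% of all. GGG and CC with 5 bases between them, a loose form of the NF-kappaB site, lay at 1 of 20 (5%), the weakest cact summit, and at 5.42% of all. Median GC was 46.5% in both sets. GC of at most 30% was found at 4 of the 20 summits (20%) and at 16.5% of all. The strongest summit of the group, at Rel, held 3 TTCG and no TTCGG, while the summit near tub held 4 and 2, so the number of copies did not follow the order of signal among these sites.

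The other genes of both pathways and their targets, taken from 6 lists written by role, ranged from strong to missing own-start peaks. The Toll extracellular cascade and receptor list had an IDR summit at an own start in 9 of 17 genes (52.9%). The receptor gene Tl was its highest, with a relative signal of 11.5 ± 1.99 (SD, n = 3), followed by the protease gene ea with 7.81 ± 0.342 and the serpin gene nec with 6.05 ± 0.566. Of the other intracellular Toll genes 4 of 7 had one (57.1%), led by Traf6 with 5.26, 11.5 and 6.39 in replicates 1, 2 and 3. Deaf1 itself, which the line also carries as a tagged insertion, had 5.89 ± 1.8, and Pli had 3.26 ± 0.775.

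In the Imd pathway, peptidoglycan recognition genes had an own-start summit in 4 of 10 (40%). PGRP-LF, a receptor-like inhibitor of the pathway, was highest with 18.8 ± 1.36 (SD, n = 3), against 5.9 ± 0.241 at PGRP-SC2 and 4.92 ± 0.686 at PGRP-LB, which encode amidases that cut peptidoglycan. Other intracellular Imd genes had one in 8 of 16 (50%). The ubiquitin-conjugating enzyme gene eff had 37.8, 50 and 34.9 in replicates 1, 2 and 3, and pirk, which encodes an inhibitor of Imd signalling, had 35.8, 32.6 and 34.1. These values lay in the range of Rel and Dif. The deubiquitinase gene scny had 12.7 ± 1.76.

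Among targets of the NF-kappaB proteins, own-start IDR summits lay at fewer of the listed antimicrobial peptide genes than of the listed Dorsal targets of the embryo. Of 14 antimicrobial peptide genes, 9 had a window summit (64.3%), near the 56.5% of all genes, and 1 had an own-start summit (7.14%), AttA with 2.14 ± 0.185 (SD, n = 3). Clustered genes share window summits, so the 9 are not separate sites: CecA1, CecA2 and CecB had the same window level of 2.99, and AttA and AttB the same 3.45. AttA and AttB are near-identical copies, and how reads that match both were placed is not given in the sources used here. Of 14 Dorsal targets of the embryo, 9 had an own-start summit (64.3%). Among these, dpp, the BMP ligand gene that Dorsal represses, had 69.1 ± 5.82, sog, which encodes a BMP antagonist, had 54.1 ± 6.93, and the repressor gene brk had 10.7 ± 0.639. The own-start counts of the 10 signalling genes (60%), the lists and all genes (27.8%) were set side by side with no test. The lists were not matched for gene length or number of starts. The own-start share was 18.6% over all genes under 6 kb and 19.7% over all genes with 1 start.

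**Figure D5:**
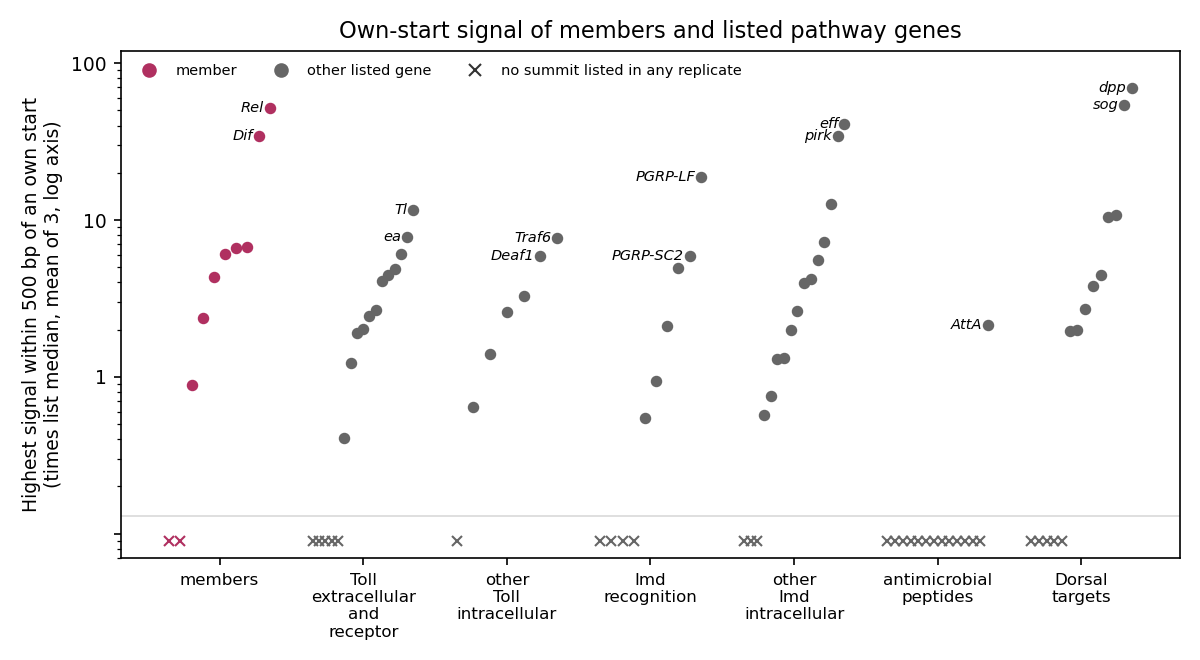
Highest relative signal within 500 bp of an own start (mean of 3 replicates with 0 where a replicate listed none, log axis) for the 10 genes and for 6 lists of other Toll, Imd and target genes. Each dot is a gene, ordered by value within its list, and crosses mark genes with no summit listed in any replicate; Rel and Dif stand with eff, pirk, dpp and sog, and AttA is the only antimicrobial peptide gene with a dot.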

How the data were processed

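Deaf1-GFP ChIP-seq peaks were analysed for 1 group of 3 replicates. Per the labels, the build is dm6. Per the deposited read-me texts, the authors called peaks on each replicate and on pooled alignments against 1 control alignment and derived the optimal IDR set from these lists. The sources used here name neither the aligner nor the caller, nor the IDR threshold. The deposited signal (column 7) is the caller's value per peak, not scaled between lists. The deposited −log10 q-values have a ceiling shared by many peaks and were not used to rank. The control experiment that the labels name was not used here, and depth is unknown.

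Summits (column 2 plus column 10) were written 1-based and joined to Ensembl release 115 genes with Python 3.11.15, pandas 2.3.3 and numpy 2.4.6, and the scripts were tested on simulated peaks. An IDR summit's replicate value is that of the nearest summit among the replicate peaks that hold it. No test was made, because there is 1 group. The named genes are all 10 members, up to 3 genes per list with the highest own-start IDR signal, and genes whose start or body lies at a member's summit. Of 79 listed genes 78 matched, and weck did not. Members and lists were chosen with earlier results of these data known.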

Additional observations from a re-analysis of the deposited data

How the results depend on the processing

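With the gene body alone as the window, 4 genes had an IDR summit (18.5% of all genes). The other windows and sets gave 6 to 10, where the share of all genes was 28.9% to 71.5%. With the gene body alone, Rel over dl was 48.4 (SD 58.9) and Dif over dl 29.4 (SD 33.5). These means rest on replicate 1, with 116.4 for Rel and 68.1 for Dif, because the dl body there holds only its peak of 0.531; the lowest replicate ratios were 13 and 10. With the sum of all summits Rel over dl was 10.8 (SD 7.95, 6.08 to 20). TTCGG within 25 bp was found at 3 of 20 summits (15%) and at 17.4% of all IDR summits. The shorter core TTCG within 50 bp was found at 13 of 20 (65%) and at 66.3% of all. Leaving out each replicate in turn gave 9 genes each time with a strong summit in every remaining replicate (53.4% to 54.1% of all genes). Rel over dl was then 13.3 to 16.9 and Dif over dl 9.33 to 11. Of the other alternatives tried, 28 in all with these left-out replicates, none moved a count by over 1.5 times or a ratio by over 1 SD. No paired analysis was possible because there is 1 group. Without read counts, a peak that is absent and one just below the last rank of a list cannot be told apart.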

Other observations

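The internal dl start was one of few strong replicate sites with no pooled peak. Of the 8667 strongest peaks of each replicate list, 157 (1.81%), 219 (2.53%) and 190 (2.19%) in replicates 1, 2 and 3 had no pooled summit within 500 bp. A start among the strongest in both other replicates but not listed at all in the third was found at 57 of 3461 genes for replicate 1, 47 of 3423 for replicate 2 and 69 of 3477 for replicate 3. Of these, 27, 22 and 30 genes also had no pooled summit at the start. Among the listed pathway genes, both chosen after their values were seen, these were POSH, which encodes a ubiquitin ligase and had 11.7 and 9.94 in replicates 2 and 3 and was not listed in replicate 1, and snk, a protease gene of the Toll cascade with 2.78 and 2.91 in replicates 1 and 2 and not listed in replicate 3.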
